A study of Homo sapiens with 4 samples.

Results

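Aminoacyl-tRNA synthetases are the enzymes that join each amino acid to its tRNA. The 36 genes described here are the protein-coding rows of the deposited gene count table, among 60544 rows in all, whose names follow the family's pattern of a one-letter amino acid code before ARS, together with EPRS1 and the phenylalanyl genes FARSA, FARSB and FARS2. Names ending in 2 were taken as mitochondrial, which gave 20 cytosolic and 16 mitochondrial members. The name pattern used no measured value. PARS2 and TARS3 fall outside it and are given only as companions.

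Poly(A) RNA was sequenced from PC3, an established line of human prostate cancer cells, after knockdown of METTL3 and in controls. METTL3 is the enzyme that places most N6-methyladenosine on messenger RNA. The control cells carried the short hairpin labelled shNC and the others the one labelled sh812, with 2 libraries each. The labels do not say which sequence sh812 targets, name no second hairpin, and do not say whether the replicates were separate cultures, so the p-values measure the spread between these libraries, which may be technical.

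Every cell needs 1 charging enzyme or more for each amino acid in the cytosol, and a second set, encoded in the nucleus and imported, charges the tRNAs of mitochondria. In animal cells several cytosolic synthetases sit with scaffold proteins in a multisynthetase complex. When amino acids run short, uncharged tRNA activates the kinase GCN2, and the transcription factor ATF4 then raises many cytosolic synthetase genes through a promoter sequence called the CARE element (C/EBP-ATF response element). This is background and not a result of these libraries.

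The libraries held 31450648 to 37041330 counts. METTL3 had 1682 and 1379 counts in shNC and 269 and 313 in sh812, so that its level in CPM (counts scaled to library size) was 18.7% of control. The epithelial markers EPCAM, KRT8, KRT18 and CDH1 were all present, at a summed 441 and 499 CPM in shNC and 551 and 567 CPM in sh812, and so moved with the groups. Of 4 leukocyte markers, 3 had no more than 5 counts in any library, CD3E and CD68 among them. PTPRC, also of the 4, had 32 and 16 counts in shNC and 12 and 24 in sh812. The sum of the 4 lay between 0.456 and 0.870 CPM. Of the endothelial markers, VWF and CDH5 had 0 to 6 counts, while PECAM1 had 902 and 748 in shNC and 1156 and 1379 in sh812 and also moved with the groups (log2 fold change 0.59, adjusted p = 0.00022 in edgeR). KLK3 and KLK2, which androgen-responsive prostate cells express, had 0 counts in all 4 libraries. The part of the marker shift in the synthetase values was not tested.

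The CARE letters are shown first because the fold changes are set against them further on. RefSeq promoter windows on GRCh38.p14, from 250 bases before a start site to 50 after it, were matched by symbol for 29 of the 36 members and not for AARS2, LARS1, VARS1, VARS2 and YARS1, among others. The letters TGATGNAA, read on both strands, were found in 7 of the 16 cytosolic members with a window (43.8%) and in 1 of the 13 mitochondrial members (7.69%). Over all 27305 genes with a window the share was 4.46%, and over all 35116 windows, each of the same length, it was 3.62%. Each line gives the strand of the gene, 5′ to 3′, with the CARE letters in capitals, TTGCATCA being their complement.
AARS1: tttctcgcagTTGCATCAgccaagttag
CARS1: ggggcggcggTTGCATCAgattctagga
GARS1: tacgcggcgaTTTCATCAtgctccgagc
IARS1: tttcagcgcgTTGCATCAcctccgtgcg
MARS1: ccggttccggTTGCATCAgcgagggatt
NARS1: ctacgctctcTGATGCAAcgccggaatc
TARS1: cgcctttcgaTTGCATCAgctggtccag
YARS2: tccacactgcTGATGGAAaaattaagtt

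In 6 of the 7 cytosolic genes the capitals read TTGCATCA or its complement TGATGCAA, and in GARS1 they read TTTCATCA. The stretches lie at chr16:70289676-70289703 for AARS1, chr11:3057408-3057435 for CARS1, chr7:30594835-30594862 for GARS1 and chr9:92293693-92293720 for IARS1. Those of MARS1, NARS1, TARS1 and YARS2 lie at chr12:57488054-57488081, chr18:57621805-57621832, chr5:33440957-33440984 and chr12:32756077-32756104. AARS1, CARS1, IARS1, NARS1 and YARS2 are on the minus strand, and GARS1, MARS1 and TARS1 on the plus strand. With the start site as 0, the first capital stood at -187 in AARS1 and between -33 (GARS1) and 14 (NARS1) in the other cytosolic genes. The CCAAT box (letters CCAAT, both strands) was found in 43.8% of the cytosolic and 61.5% of the mitochondrial members with a window and in 39.7% of all genes. No CARE match shared bases with a CCAAT or ETS match in a member. A match is a description of the letters and not evidence of a bound site.

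HARS1 and HARS2, which charge histidine in the cytosol and in mitochondria, stand head to head on chromosome 5 and share 437 exon bases in GENCODE 29. Their windows hold the same pair of ETS-type matches (letters CCGGAAGT, both strands, in 4.95% of all genes with a window), shown here on the HARS2 strand with those letters in capitals, at chr5:140691362-140691389 and chr5:140691437-140691464.
HARS1 side: agcaaggatgACTTCCGGctatcgagtc
HARS2 side: ccggctcctcCCGGAAGTgccgaagctg

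Levels were compared between genes per kilobase of exon, using GENCODE 29 gene models. The cytosolic genes ran from 5.22 to 97.4 CPM per kilobase in shNC, with a median of 41.2. The 14 mitochondrial genes other than VARS2 and SARS2 ran from 2.47 to 104, with a median of 9.53. EPRS1, the fused glutamyl- and prolyl-tRNA synthetase, led the cytosolic set at 97.4 ± 4.53 CPM per kilobase (SD, n = 2) in shNC and 102 ± 2.16 in sh812. FARSA, the catalytic subunit of the cytosolic phenylalanyl enzyme, followed at 91.2 ± 3.58 in shNC, a level whose spread overlaps that of EPRS1, and its partner subunit FARSB stood at 47.6 ± 2.76. With the longest transcript in place of all exons, FARSA came first and EPRS1 second. CARS1, for cysteine, was the lowest cytosolic gene at 5.22 ± 0.342, below HARS1 at 11.1 ± 0.348.

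**Figure D1:**
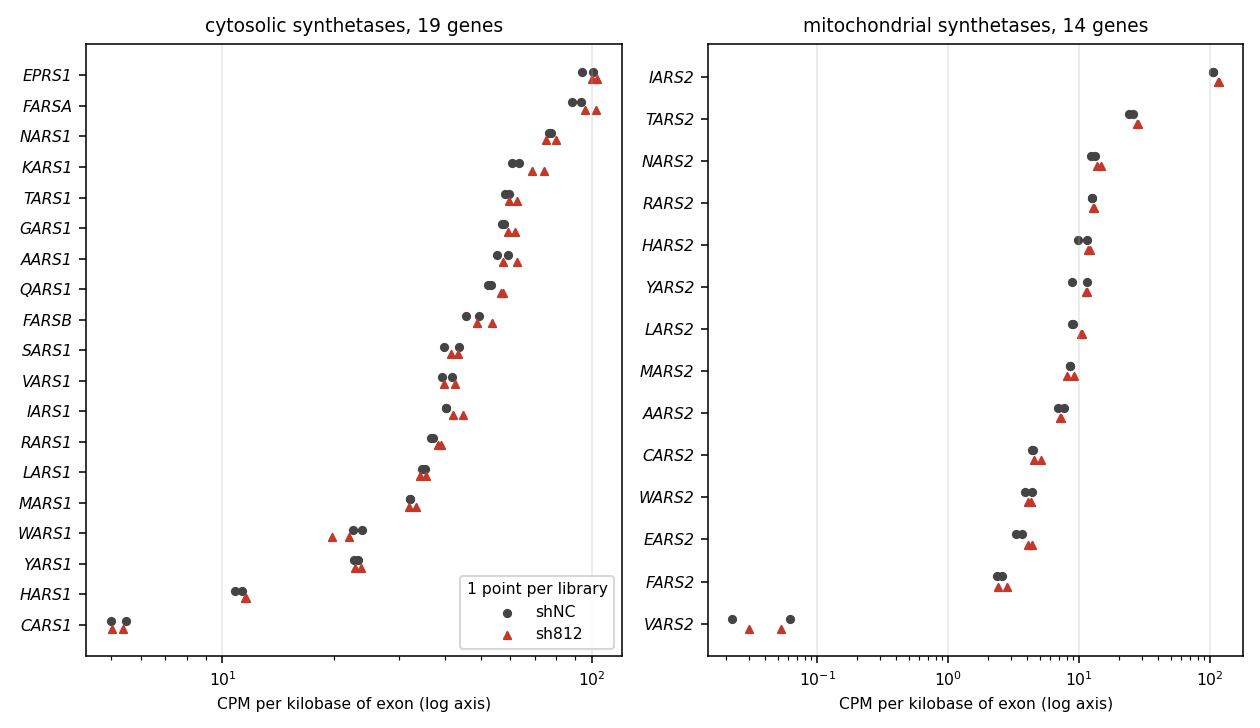
Level of 33 synthetase genes in each of the 4 libraries, in CPM per kilobase of exon on a log axis whose range differs between the panels; circles are shNC and triangles sh812. SARS2, with 0 counts in 2 libraries, and 2 other genes are left out. EPRS1 and IARS2 head the 2 panels. The points of a gene lie close together compared with the whole range across genes, and spread most in VARS2. Points of neighbouring genes can overlap, as in TARS1, GARS1 and AARS1.

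The mitochondrial set was led by a single gene. IARS2, the mitochondrial isoleucyl enzyme, stood at 104 ± 0.464 CPM per kilobase in shNC, while TARS2, for threonine, stood at 24.7 ± 1.24. Per kilobase of all exons, IARS2 was also the one mitochondrial gene above its cytosolic counterpart, IARS1 at 40.4 ± 0.0636. In the 13 pairs with the same amino acid that leave out VARS2, the cytosolic level was higher in 12, by a median of 2.94-fold over the 13. By the same measure the ratio of cytosolic to mitochondrial level ran from 0.386 for isoleucine and 1.04 for histidine to 28.2 for EPRS1 over EARS2. EARS2 is the mitochondrial glutamyl enzyme. With the longest transcript in place of all exons, CARS2 at 13.1 CPM per kilobase in shNC also stood above CARS1 at 9.15. The count of 12 pairs is therefore that by all exons. IARS2 and EPRS1, each the first of its set by level per kilobase of all exons, lie 47.4 kb apart on chromosome 1, on opposite strands.

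SARS2 and VARS2, the mitochondrial seryl and valyl enzymes, were listed near 0 in every library. SARS2 had 2 and 0 counts in shNC and 0 and 6 in sh812, and did not pass the filter on low counts. VARS2 had 20 and 6 counts in shNC and 9 and 16 in sh812. In GENCODE 29, 57.0% of the SARS2 exon bases and 22.0% of the VARS2 exon bases lie under exons of other genes, the highest shares in the family. For SARS2 the largest overlap is with AC011455.2 on the same strand (46.2% of its exon bases), which had 0 counts in all 4 libraries. The gene that overlaps VARS2, GTF2H4, encodes a subunit of the general transcription factor TFIIH and had 1 to 3 counts. Whether reads of these genes were lost in counting was not tested.

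The comparison of sh812 with shNC found small differences across the family. Of the 35 members tested, 2 were called higher in sh812 at an adjusted p under 0.05 and 0 lower, by the quasi-likelihood test of edgeR, adjusted by Benjamini-Hochberg over the 16802 genes tested. Of all genes tested, 10.8% were called, 5.43% higher and 5.42% lower. At an unadjusted p under 0.05 there were 7 members higher and 1 lower, against 24.8% of all genes in either direction. The members' log2 fold changes ran from -0.15 to 0.28, with a median of 0.069, beside a median of -0.0056 over all genes tested. The 95% interval of the fold change lay within 1.5-fold either way for 34 of the 35 members, all but VARS2, as it did for 60.6% of all genes. The bound of 1.5-fold was chosen after the values were seen. In bulk RNA, less of a transcript per cell and fewer cells that carry it cannot be told apart.

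**Figure D2:**
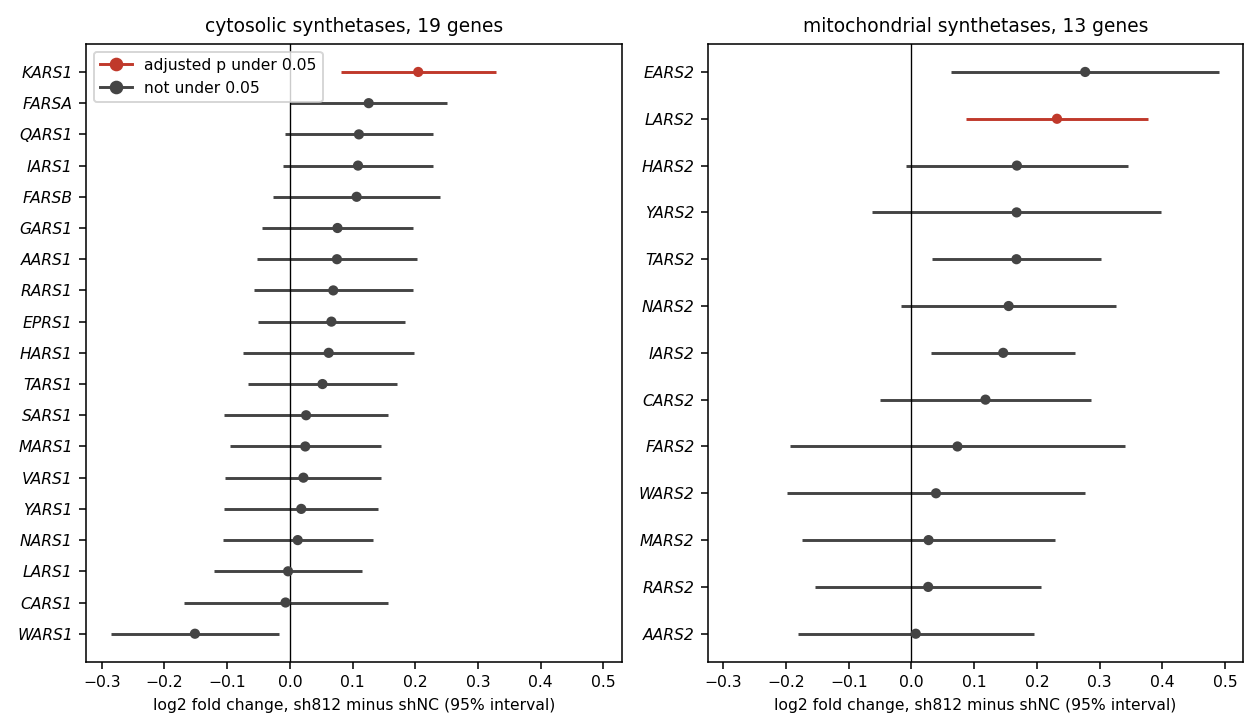
Log2 fold change of sh812 over shNC for 19 cytosolic and 13 mitochondrial synthetases, with 95% intervals from edgeR's quasi-likelihood fit; red marks an adjusted p under 0.05. VARS2 is left out because its interval, from -1.49 to 1.38, would flatten the axis, and 2 other genes are not drawn. KARS1 and LARS2 are the 2 red points, and WARS1 is the one gene whose interval lies below 0.

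KARS1 charges lysine in both the cytosol and mitochondria from 1 gene, which spans 75627474 to 75648643 on chromosome 16 (minus strand), and its cytosolic form belongs to the multisynthetase complex. It stood at 247 and 259 CPM in the shNC libraries and at 302 and 281 CPM in the sh812 libraries. Both sh812 libraries lay above both controls, by more than the gap within either group. Its log2 fold change was 0.20 (SE 0.06), a rise of 15.2%, with an adjusted p of 0.0275 in edgeR. TERF2IP, a telomere-associated protein gene that overlaps KARS1 on the opposite strand over 176 exon bases, had a log2 fold change of -0.018 (adjusted p = 0.922 in edgeR).

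LARS2 charges leucine in mitochondria, and its gene spans 45388506 to 45549421 on chromosome 3 (plus strand) with no other exon over it. It stood at 61.4 and 60.0 CPM in shNC and at 71.7 and 70.9 CPM in sh812. The groups did not overlap, and the replicates of each group lay close together. Its log2 fold change was 0.23 (SE 0.07), a rise of 17.4%, with an adjusted p of 0.0341 in edgeR. LARS1, the cytosolic leucyl enzyme that also senses leucine for the growth kinase mTORC1, had a log2 fold change of -0.0029 (95% interval -0.12 to 0.12).

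Both calls depended on the sh812 libraries and on a scaling beyond library size, while the fold changes kept their direction. Other scalings kept both calls. The adjusted p in edgeR was 0.0296 for KARS1 and 0.0327 for LARS2 with RLE size factors, and 0.0257 and 0.0331 with upper quartile factors. Without sh812 replicate 1 the adjusted p in edgeR was 0.478 for KARS1 and 0.293 for LARS2, without sh812 replicate 2 it was 0.11 and 0.223, and with library size in place of TMM factors it was 0.0705 and 0.0924. With 1 sh812 library left, whose spread is taken to equal that of the other group, the calls over all genes also fell, from 1822 to 587 and 682. In the fits without sh812 replicate 1 and without sh812 replicate 2, the log2 fold change was 0.15 and 0.25 for KARS1 and 0.22 and 0.24 for LARS2.

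Most mitochondrial members lay above control. Of the 15 tested, 14 had a positive fold change, as did 49% of all genes, and the median was 0.14. In 9 of the 15 both sh812 libraries lay above both controls, an arrangement that 26.2% of all genes showed, and in 0 both lay below. The summed level of the 16 genes was 1030 and 1056 CPM in shNC and 1155 and 1149 CPM in sh812. With library size alone 10 of 15 fold changes were positive (median 0.099), and with the trends on exon length and GC content removed 11 of 15 were (median 0.0999), so the median kept its sign in both. The difference between the compartments was not tested, since the genes of a list are not replicates.

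Behind LARS2, 4 mitochondrial genes had an unadjusted p under 0.05 and did not pass the adjusted test, among them EARS2, IARS2 and TARS2. EARS2 had 20.8 and 18.8 CPM in shNC and 24.9 and 23.2 CPM in sh812, a log2 fold change of 0.28 with an SE of 0.10 (adjusted p = 0.0862, edgeR), the highest value in the family. IARS2 had 437 and 434 CPM in shNC and 479 and 484 CPM in sh812, a log2 fold change of 0.15 with an SE of 0.06 (adjusted p = 0.0923, edgeR). In both genes the groups did not overlap, and the IARS2 replicates differed by far less than the groups did.

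TARS2 had 97.0 and 104 CPM in shNC and 112 and 114 CPM in sh812, a log2 fold change of 0.17 with an SE of 0.07 (adjusted p = 0.101, edgeR). Its groups were again separate, with the wider gap inside the controls. HARS2, NARS2 for asparagine, YARS2 for tyrosine and CARS2 for cysteine had log2 fold changes of 0.17, 0.15, 0.17 and 0.12, none past the adjusted test. Without shNC replicate 1, EARS2, IARS2, FARSB and WARS1 were called besides KARS1 and LARS2, and without shNC replicate 2, FARSA, HARS2, IARS2, TARS2 and YARS2 were among the 8 called. AARS2, RARS2, MARS2, WARS2 and FARS2, for alanine, arginine, methionine, tryptophan and phenylalanine, lay between 0.0068 and 0.073.

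**Figure D3:**
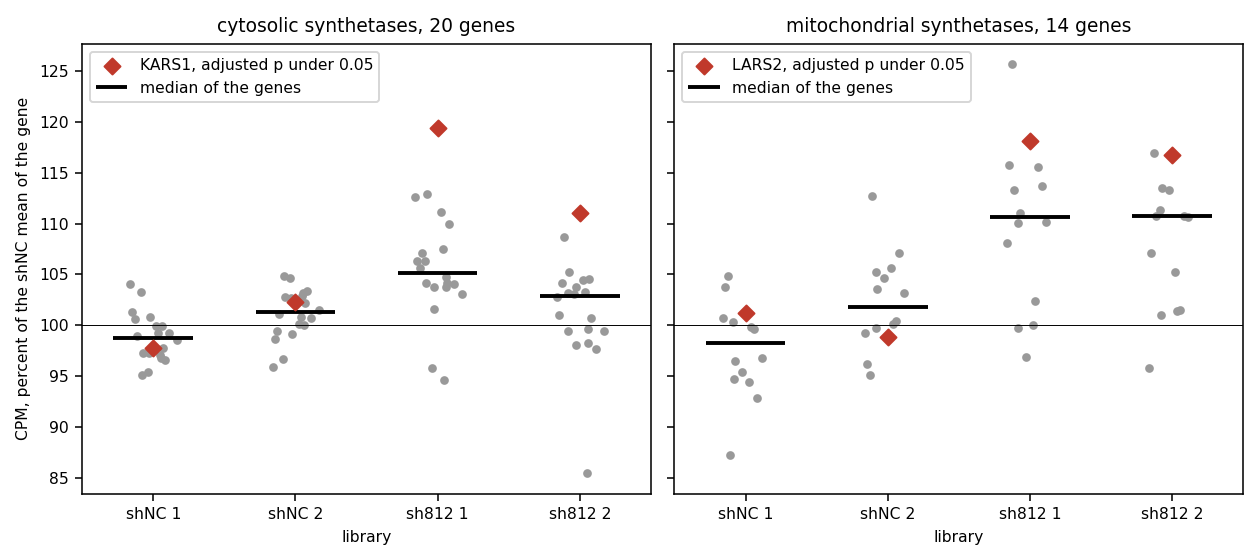
Level of each synthetase gene in each library as a percentage of that gene's shNC mean; each point is 1 gene, black bars are medians and red diamonds the called gene of each panel. VARS2 and SARS2 are left out. The mitochondrial medians of sh812 stand at 111% in both libraries, and the cytosolic ones at 105% and 103%.

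The median log2 fold change of the 20 cytosolic members was 0.058, with 17 positive and 3 negative. Both sh812 libraries lay above both controls in 8 genes, an arrangement that 26.2% of all genes showed. In 1 gene both lay below, as in 27.4% of all genes. The groups overlapped in 11 of the 20, as they did in 7798 of the 16802 genes tested. With library size alone 12 of 20 were positive and the median was 0.013, and without shNC replicate 1 it was 0.028. Their summed level was 4476 and 4529 CPM in shNC and 4805 and 4585 CPM in sh812, so the mitochondrial share of the family's summed CPM was 18.7% and 18.9% in shNC and 19.4% and 20.04% in sh812.

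WARS1, the cytosolic tryptophanyl enzyme and a gene that interferon gamma induces, was the one member with an unadjusted p under 0.05 in the lower direction. It had 143 and 152 CPM in shNC and 140 and 126 CPM in sh812. The groups were separate by a narrow margin, with sh812 replicate 1 just below shNC replicate 1. Its log2 fold change was -0.15 with an SE of 0.07 (adjusted p = 0.143, edgeR). The adjusted p in edgeR was 0.0493 with library size alone, 0.0168 without shNC replicate 1 and 0.752 without sh812 replicate 2, where the fold change was -0.081.

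FARSA had 216 and 228 CPM in shNC and 251 and 234 CPM in sh812, a log2 fold change of 0.13 with an SE of 0.06 (adjusted p = 0.199, edgeR). The FARSA fold change was 0.081 with library size alone, 0.075 without sh812 replicate 1, 0.050 with the length trend removed and 0.038 with length and GC trends removed. EPRS1, the highest cytosolic gene, had 548 and 513 CPM in shNC and 564 and 547 CPM in sh812. Its groups overlapped, and its log2 fold change was 0.066 with an SE of 0.06 (adjusted p = 0.524, edgeR), between 0.021 with library size alone and 0.11 without shNC replicate 1. For the 8 synthetases of the multisynthetase complex, among them EPRS1, IARS1, LARS1, MARS1, QARS1, RARS1 and KARS1, the median log2 fold change was 0.068, with KARS1 as the 1 called. The 12 cytosolic genes outside the complex had a median of 0.039 with 0 called in edgeR, 2 of them (FARSA and WARS1) at an unadjusted p under 0.05. Over all genes tested 10.8% were called and 24.8% had such a p. The difference between the genes inside and outside the complex was not tested.

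Synthetases fall into 2 unrelated structural classes that bind ATP differently. Across the 18 class I genes the median was 0.033 on the log2 scale, with 14 positive and 4 negative, and LARS2 was called. The 16 class II genes tested had a median of 0.075, with 16 positive, from 0.0068 in AARS2 to 0.20 in KARS1, and KARS1 was called. Over all genes tested 49% were positive and 10.8% were called. The difference between the classes was not tested. EPRS1 joins a domain of each class and was left out of both. GARS1, which like KARS1 serves the cytosol and mitochondria from 1 gene, had 237 and 241 CPM in shNC and 257 and 247 CPM in sh812, with a log2 fold change of 0.076 (adjusted p = 0.459 in edgeR).

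Paired by amino acid, the mitochondrial gene had the higher fold change in 11 of 13 pairs, VARS2 left out, and the median difference was 0.12 on the log2 scale. The exceptions were alanine, with 0.075 for AARS1 and 0.0068 for AARS2, and arginine, with 0.069 for RARS1 and 0.027 for RARS2. The pair left out, VARS1 and VARS2, had a difference of -0.073, so with it the count was 11 of 14. The widest gaps were for leucine (0.23), glutamate (0.21) and tryptophan (0.19). The narrowest of the 11 was methionine, at 0.0027, below the SE of MARS1 (0.06) and of MARS2 (0.10). The paired values share the same 4 libraries, and no test was made across genes.

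The 7 cytosolic members with CARE letters had log2 fold changes from -0.0069 in CARS1 to 0.11 in IARS1, with a median of 0.052, and 0 of 7 were called or had an unadjusted p under 0.05 in edgeR. Over all genes tested 10.8% were called and 24.8% had such a p, and a count of 0 among 7 genes is read against those shares. DESeq2 and limma-voom called 0 of them as well. The 9 cytosolic members with a window and without those letters had a median of 0.069, with 1 called. ATF4 itself had 202.0 ± 5.01 CPM (SD, n = 2) in shNC and 201.3 ± 0.929 in sh812, and its log2 fold change was -0.0048 (adjusted p = 0.976 in edgeR). These are RNA levels, and ATF4 protein and its activity were not measured in these libraries.

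**Figure D4:**
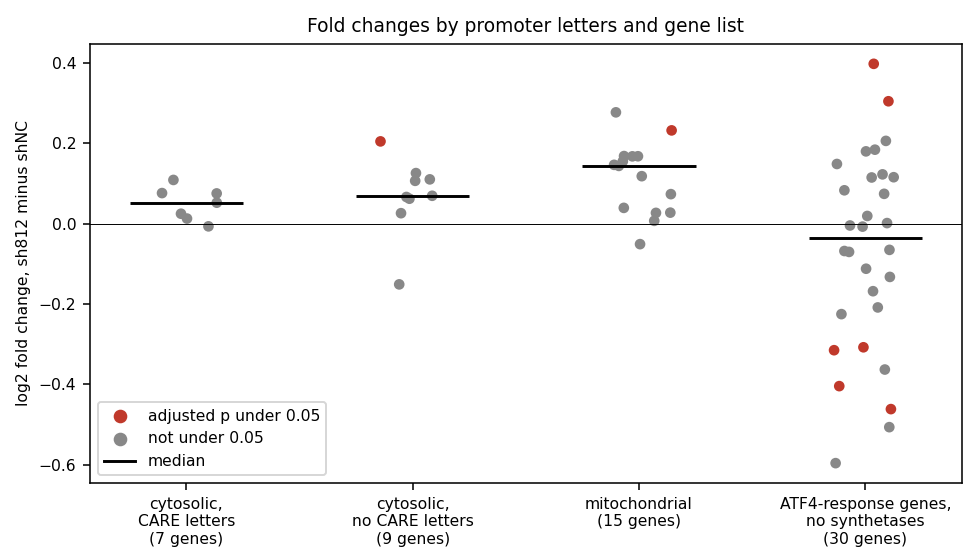
Log2 fold change of sh812 over shNC for cytosolic synthetases with and without the CARE letters TGATGNAA in their promoter window, for the 15 tested mitochondrial synthetases and for 30 ATF4-response genes that are not synthetases; each point is a gene, bars are medians and red marks an adjusted p under 0.05 in edgeR. Points of the first 2 groups lie between -0.15 and 0.20, and the ATF4-response genes spread from -0.60 to 0.40.

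Of 30 ATF4-response genes that are not synthetases, 2 were called higher and 4 lower, with a median log2 fold change of -0.037. The shares over all genes tested were 5.43% and 5.42%, so the count called higher is near that background. The genes called lower were GDF15, a stress-induced cytokine (-0.46, adjusted p = 0.00072 in edgeR), PPP1R15A, which recruits the phosphatase of eIF2 alpha (-0.31, adjusted p = 0.00666), SLC7A11, the cystine importer (-0.32, adjusted p = 0.0115), and SESN2, a leucine sensor (-0.40, adjusted p = 0.0238). Those called higher were CTH, which makes cysteine from cystathionine (0.40, adjusted p = 0.0205), and DDIT4, an inhibitor of mTORC1 (0.30, adjusted p = 0.0383). Without sh812 replicate 2 only GDF15 of these kept its call, SESN2 and SLC7A11 also lost theirs without sh812 replicate 1, and DDIT4 lost its call without shNC replicate 1. Leaving out sh812 replicate 1 gave DDIT4 a log2 fold change of 0.46, and leaving out sh812 replicate 2 gave 0.13. The DDIT4 call was also lost in DESeq2 (adjusted p = 0.0664) and with library size alone (adjusted p = 0.0897 in edgeR), that of SLC7A11 with length and GC trends removed (adjusted p = 0.0568 in edgeR), and those of CTH and DDIT4 with the length trend removed (adjusted p = 0.0584 and 0.153 in edgeR). DDIT3, which overlaps MARS1 on the opposite strand over 355 exon bases, had a log2 fold change of -0.23 (adjusted p = 0.237 in edgeR), and MARS1 one of 0.025.

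The partners of the synthetases passed no adjusted test. The scaffolds of the multisynthetase complex, AIMP1, AIMP2 and EEF1E1, stood at -0.022, 0.18 and 0.33 on the log2 scale (adjusted p = 0.903, 0.282 and 0.0931 in edgeR). Of these scaffolds only EEF1E1 had an unadjusted p under 0.05 (0.0148 in edgeR), as 24.8% of all genes did. PARS2, the mitochondrial prolyl enzyme, and TARS3, a second threonyl enzyme, had values of 0.091 and 0.030 (adjusted p = 0.71 and 0.939 in edgeR). Of 13 other genes of tRNA charging, 12 were tested and 0 were called in edgeR, with 1 at an unadjusted p under 0.05, and 0 were called by DESeq2 or limma-voom. That gene was DTD1, which removes D-amino acids from tRNA, at -0.23 (adjusted p = 0.144). The GCN2 gene EIF2AK4 had a log2 fold change of 0.0099, and XPOT, the tRNA export receptor, one of 0.00092.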

How the data were processed

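The deposited table holds raw counts per gene, which the authors made with tools that the submitters' processing notes list, without role or order, as fastp, STAR 2.7.1a, featureCounts and DESeq2, on hg38. The strand setting and annotation release are not given in the sources used here, so overlapping genes can share or lose reads. Per the labels' protocols the second strand was marked with dUTP.

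Counts were fitted with edgeR 4.0.16 in R 4.3.3 (filterByExpr, TMM, glmQLFit, glmQLFTest, no covariate) on the whole table, with Benjamini-Hochberg adjustment over the 16802 genes kept and a threshold of 0.05. SEs were derived from the F statistic. CPM uses TMM-adjusted library sizes. DESeq2 1.42.0 and limma-voom (limma 3.58.1) were alternatives, with other scalings, filters, a replicate block, each library left out, and lowess trends (span 0.3) on exon length and GC content removed. Positions and lengths are those of GENCODE 29 on GRCh38, joined on the Ensembl gene number, and promoter sequences from RefSeq. Replicate libraries differed by more than sampling noise (chi-square per gene 8.43 in shNC and 4.51 in sh812).

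Members, lists, tests and the naming rule (full values for METTL3, for members with p under 0.05 and for the highest member of each compartment, and for called companion genes, at most 4 per list and direction) were chosen with earlier results of these data known. The ETS letters, the 1.5-fold bound and the longest-transcript lengths were added after the files were seen. On simulated counts, 16437 genes were tested, and 200 genes with a mean log2 CPM above 5 were given a change. The fit called 98% of those at a true log2 change of 0.5, 36% at 0.25 and 6% at 0.15, with 5 false calls among 125. Members below that level, EARS2 and FARS2 among them, are not covered by these rates. Some genes enter the fits, counts and medians and are not reported by name here.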

Additional observations from a re-analysis of the deposited data

How the results depend on the processing

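Of 14 alternatives, 9 left the count of called members within 1.5 times of 2. With library size alone 1 member was called, WARS1, and it was lower. Leaving out a library gave 0 to 8 called members, namely 6 without shNC replicate 1, 8 without shNC replicate 2 and 0 without either sh812 replicate. KARS1 and LARS2 kept their direction in all 14 and their call in 11. The median of the cytosolic members was 0.013 with library size alone and ran from 0.028 to 0.071 over the libraries left out. That of the mitochondrial members was 0.099 with library size alone, 0.10 with the length trend removed and 0.0999 with length and GC trends removed, and ran from 0.098 to 0.15 over the libraries left out. The median of all genes was -0.050 with library size alone; the cause of the other shifts was not tested. The replicate numbers pair nothing that the labels name, and libraries with the same number deviated from their group means with a Pearson r of 0.0164 over genes; with the replicate block 2 members were called, and the medians were 0.058 and 0.14. The companion genes of tRNA charging had 1 call without shNC replicate 1 (lower), and the ATF4-response genes 15 calls without shNC replicate 2 (11 higher, 4 lower) and 1 without sh812 replicate 2, against 6. In simulated data with 2 libraries per group, the fit called 36% of log2 changes of 0.25 and 6% of those of 0.15. The changed genes there all had a mean log2 CPM above 5, which not all members reach. The fit's cutoff on the unadjusted p was stricter there than in the real data. Changes of the size seen in this family can therefore go uncalled, at a rate not known for these data.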
